A study of Rattus norvegicus with 24 samples.

Results

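Transcripts of the CREB, CRTC and SIK genes were followed in INS-1 cells, an insulin-secreting line derived from a rat insulinoma. The set was defined by symbol and held 9 genes: Crem, Creb1 and Atf1 of the CREB family, the coactivators Crtc1, Crtc2 and Crtc3, and the salt-inducible kinases Sik1, Sik2 and Sik3. Of these 7 were matched by symbol among 26404 gene identifiers, 18465 of which carried a symbol. Creb1 and Crtc3 were not matched, so their transcripts were not analysed here and only their promoter windows were searched. All 7 matched genes passed the filter on low values in every comparison.

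Every culture was first kept for 90 min in medium with 3 mM glucose and then moved to 11 mM glucose together with its treatment. The Control groups received the vehicle DMSO, the GLP-1 groups received the incretin peptide GLP-1 at 100 nM, and the BMS-21 groups received the code-named compound BMS-21 at 1 µM. Cells were taken at 1 h or 6 h, with 4 libraries in each of the 6 groups. All libraries came from 1 cell line, the doses of GLP-1 and BMS-21 differed, and nothing in the labels says whether replicates came from separate cultures. The p-values therefore measure spread among samples that may be technical. Each library held 10667350 to 13148970 reads on genes, and no matched member had fewer than 248 reads in any library. Of 12 beta-cell markers, 11 were matched and all 11 had a median over 1 RPM (reads scaled to the library total), whereas Sst, the somatostatin gene of islet delta cells, had at most 1 read in every library. Of 16 markers of exocrine, duct, stromal, endothelial and blood cells, 15 were matched and Krt7 was the 1 with a median over 1 RPM; their sum was 46.4 to 87.3 RPM.

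Background on the pathway is as follows. GLP-1 acts on a receptor that raises cAMP, and cAMP activates protein kinase A. That kinase phosphorylates CREB at gene promoters, and it also phosphorylates the SIK kinases, which otherwise hold the CRTC coactivators in the cytoplasm. Released CRTC proteins enter the nucleus and join CREB on the cAMP response element. Sik1 and Crem are themselves targets of this route: SIK1 returns CRTC to the cytoplasm, and the short ICER products of Crem occupy cAMP response elements without activating them. In beta cells the pathway links incretin signals to genes for survival and secretion.

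The promoters of Crem and Sik1 are shown because their transcripts had the largest fold changes among the members. The windows were taken from RefSeq on rat build GRCr8, run from 250 bases before to 50 bases after a transcript start, and are written on the strand of the gene. Of the 9 genes 8 had at least 1 window, and Atf1 had none. The search covered the palindromic cAMP response element TGACGTCA and its core site TGACG, which reads CGTCA on the other strand and lies inside the full element. Of 33469 rat promoter windows of this length, 1.83% held the full element and 21.2% held a core site. After the Crem sequence had been seen, the looser form TGANGTCA was searched as well and was found in 10.2% of windows. Capitals mark these matches below, and the starts of Crem are numbered along the gene.
Crem, start 1, chr17:58933816-58934115, plus strand: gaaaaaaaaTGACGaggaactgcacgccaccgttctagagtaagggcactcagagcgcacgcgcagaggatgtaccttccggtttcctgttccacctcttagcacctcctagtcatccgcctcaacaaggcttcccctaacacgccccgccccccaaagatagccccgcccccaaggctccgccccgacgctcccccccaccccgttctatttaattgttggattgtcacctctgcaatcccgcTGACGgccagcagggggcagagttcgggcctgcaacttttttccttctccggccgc
Crem, start 2, chr17:58984547-58984846, plus strand: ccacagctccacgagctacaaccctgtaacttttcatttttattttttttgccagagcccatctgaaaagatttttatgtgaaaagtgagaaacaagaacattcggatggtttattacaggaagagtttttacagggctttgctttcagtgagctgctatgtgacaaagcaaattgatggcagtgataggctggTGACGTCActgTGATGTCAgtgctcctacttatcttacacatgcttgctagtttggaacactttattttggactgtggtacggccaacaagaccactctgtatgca
Crem, start 3, chr17:58985240-58985539, plus strand: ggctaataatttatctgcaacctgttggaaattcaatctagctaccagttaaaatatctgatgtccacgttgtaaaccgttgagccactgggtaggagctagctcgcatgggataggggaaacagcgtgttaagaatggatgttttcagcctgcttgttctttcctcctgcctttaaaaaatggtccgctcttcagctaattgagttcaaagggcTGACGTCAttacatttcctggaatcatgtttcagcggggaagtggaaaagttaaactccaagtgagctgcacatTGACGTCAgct
Sik1, chr20:9958597-9958896, minus strand: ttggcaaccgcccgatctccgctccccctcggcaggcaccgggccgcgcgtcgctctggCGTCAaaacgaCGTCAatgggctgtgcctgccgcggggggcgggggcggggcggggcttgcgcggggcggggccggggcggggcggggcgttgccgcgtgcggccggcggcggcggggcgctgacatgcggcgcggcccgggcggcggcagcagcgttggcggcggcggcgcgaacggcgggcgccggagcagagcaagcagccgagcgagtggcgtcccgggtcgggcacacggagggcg

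Among the 8 genes with a window, Crem was the one with the full element. Its start 2 had 1 copy beginning 56 bases before the start, followed by TGATGTCA beginning 45 bases before it. Start 3 had 1 copy beginning 35 bases before the start and 1 beginning 39 bases after it. Start 1, 50731 bases ahead of start 2, had core sites beginning 241 and 6 bases before it and no full element. Starts 2 and 3 lay 693 bases apart. Sik1 had core sites beginning 191 and 180 bases before its start and no full element. Core sites were also present at Sik2, beginning 59 and 46 bases before the start, and at Sik3, beginning 171, 154 and 95 bases before it, where TGAGGTCA, a match of the looser form, also began 201 bases before the start. Crtc2 had 1 core site beginning 95 bases before its start, the first Creb1 window had 3, and Crtc1 and Crtc3 had none. These are matches of letters in a window, and no binding was measured.

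Crem encodes both full-length activators and repressors and, from an internal start, the short ICER repressors. It was higher after both agents at both times. Levels below are TMM-scaled CPM (counts scaled to a common library size), which share 1 scale over the 24 libraries and are compared within a gene only. In the Control libraries at 1 h Crem stood at 88.3, 88.1, 94.2 and 101 CPM in replicates 1 to 4. With GLP-1 at 1 h the values were 433, 410, 316 and 416 CPM. With BMS-21 at 1 h they were 428, 378, 292 and 417 CPM. Every treated library was above every Control library, and the treated libraries varied more among themselves than the Control libraries did. By limma the log2 fold change was 2.08 ± 0.11 for GLP-1 (SE, 4 against 4 libraries, 4.22-fold, adjusted p = 1.05e-05) and 2.02 ± 0.13 for BMS-21 (4.04-fold, adjusted p = 0.000107). A deposited value is a gene total, so full-length Crem and ICER transcripts could not be separated.

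At 6 h the Crem levels lay between those of the Control and the 1 h treated libraries. The Control libraries held 72.9, 81.1, 82.5 and 88.9 CPM. GLP-1 gave 204, 200, 170 and 184 CPM, and BMS-21 gave 197, 195, 170 and 184 CPM. Again no treated library overlapped a Control library. The log2 fold change was 1.22 ± 0.06 for GLP-1 (2.34-fold, limma adjusted p = 6.92e-10) and 1.20 ± 0.06 for BMS-21 (2.29-fold, limma adjusted p = 1.41e-11). Ordered by mean, the groups ran from GLP-1 at 1 h (394 CPM) and BMS-21 at 1 h (379 CPM) through GLP-1 at 6 h (190 CPM) and BMS-21 at 6 h (186 CPM) to Control at 1 h (92.9 CPM) and Control at 6 h (81.4 CPM). Libraries overlapped between neighbours within each of these pairs and did not overlap between the pairs.

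In Crem the treated libraries of replicate 3 were low. Replicate 3 had the lowest Crem level in 4 of 4 treated groups, and in neither Control group. The log2 ratio of each treated library to the Control library with the same number was 2.30, 2.22, 1.75 and 2.04 for GLP-1 at 1 h in replicates 1 to 4, and 2.28, 2.10, 1.63 and 2.05 for BMS-21 at 1 h. At 6 h these ratios were 1.48, 1.30, 1.05 and 1.05 for GLP-1 and 1.44, 1.27, 1.04 and 1.05 for BMS-21. Across 10799 genes, after removal of group means, replicates 1 and 2 stood apart from replicates 3 and 4 on the first principal component. In replicates 1 and 2 alone Crem rose by a log2 of 2.26 (GLP-1) and 2.19 (BMS-21) at 1 h, and in replicates 3 and 4 alone the estimates were 1.90 and 1.84, which with 2 libraries a group did not pass (limma adjusted p = 0.0987 and 0.194). At 6 h the Crem values within these pairs were 1.40 and 1.05 for GLP-1 and 1.35 and 1.04 for BMS-21, and all 4 passed. The part of the replicate in the size of the Crem response was not tested.

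**Figure D1:**
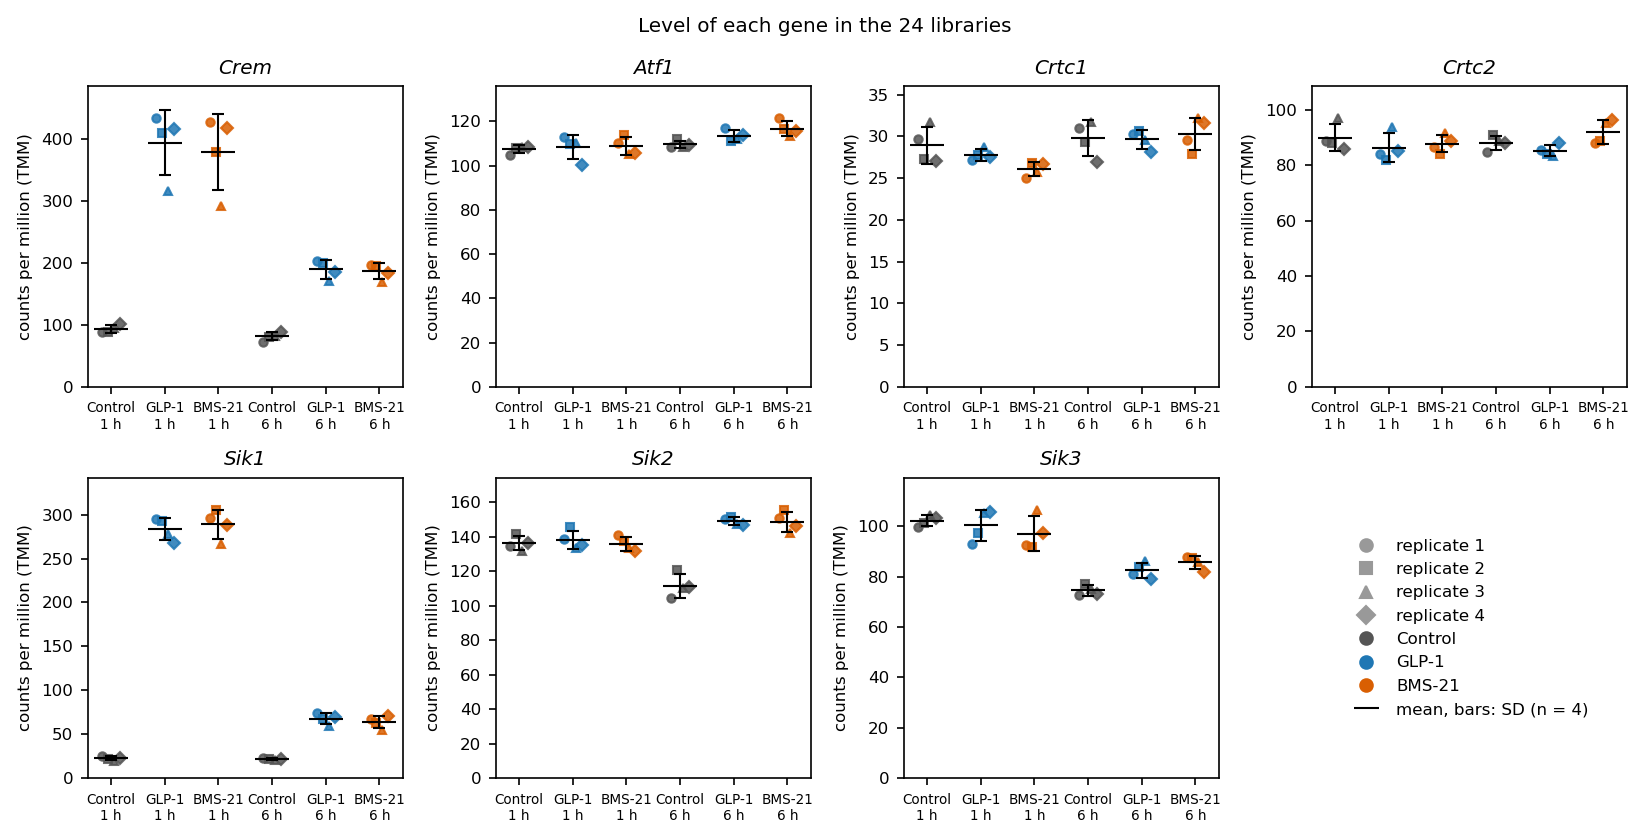
Level of each matched gene in the 24 libraries, in TMM-scaled CPM on axes that start at 0, by group; symbols are replicates, horizontal lines are means and bars are SD (n = 4). Crem and Sik1 form 3 tiers with no overlap between them (treated at 1 h, treated at 6 h, Control), Sik2 is lowest in Control at 6 h, and Sik3 is lower at 6 h than at 1 h in every treatment.

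Atf1 encodes an activator closely related to CREB1. No comparison of Atf1 between an agent and Control passed the test by limma, edgeR or DESeq2 on the 8 libraries. Its libraries ranged from 100.4 to 121 CPM, and the highest of its 6 group means was 1.09 times the lowest. The largest estimate was for BMS-21 at 6 h, where the 4 libraries held 113 to 121 CPM against 108 to 112 CPM in Control and did not overlap them. That difference was 0.09 ± 0.04 (95% interval 0.01 to 0.17, limma adjusted p = 0.0752, and 0.0493 with all 24 libraries in 1 fit). As reads per library, Crem was 0.865 ± 0.0507 of Atf1 in Control at 1 h (mean ± SD, n = 4), 3.65 ± 0.549 with GLP-1 and 3.48 ± 0.548 with BMS-21. At 6 h the ratio was 0.743 ± 0.0596 in Control, 1.67 ± 0.126 with GLP-1 and 1.597 ± 0.0741 with BMS-21. The ratio compares reads and not molecules, because gene lengths were not used.

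The coactivator genes Crtc1 and Crtc2, whose proteins are the part of the pathway moved between cytoplasm and nucleus, did not pass the test in any comparison with Control, by limma, edgeR or DESeq2. Crtc1 ranged from 25.0 to 32.2 CPM. At 1 h it held 29.7, 27.3, 31.8 and 27.0 CPM in Control, 27.1, 27.8, 28.7 and 27.5 CPM with GLP-1, and 25.0, 26.9, 25.7 and 26.6 CPM with BMS-21. The BMS-21 libraries were thus all below those of both other groups, by 0.15 ± 0.07 on the log2 scale against Control, but this did not pass (95% interval -0.28 to -0.01, limma adjusted p = 0.281). The same estimate for GLP-1 was -0.05 (interval -0.19 to 0.08). Crtc2 ranged from 82.0 to 97.0 CPM, and its 4 estimates against Control lay between -0.06 and 0.06. With 287 to 407 reads for Crtc1 and 899 to 1211 for Crtc2 in a library, the intervals leave room for changes of about the size of their bounds.

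Sik1 is the kinase gene of the 3 whose transcription cAMP is known to induce. It had the largest fold changes of any member. In Control at 1 h it stood at 25.7, 22.3, 20.1 and 23.4 CPM. With GLP-1 at 1 h it stood at 295, 293, 278 and 268 CPM, and with BMS-21 at 296, 306, 267 and 288 CPM. The lowest of the 8 treated libraries held 267 CPM and the highest Control library 25.7 CPM. The log2 fold change was 3.63 ± 0.06 for GLP-1 (12.4-fold, limma adjusted p = 6.22e-22) and 3.66 ± 0.06 for BMS-21 (12.6-fold, limma adjusted p = 1.12e-18). By fold, Sik1 ranked 10th of 12715 genes for GLP-1 and 8th of 12697 for BMS-21. Crem ranked 29th in both.

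By 6 h the treated levels of Sik1 had come down and were still above Control. The Control libraries held 22.9, 21.9, 20.6 and 21.9 CPM. GLP-1 gave 74.8, 67.9, 59.2 and 69.9 CPM, and BMS-21 gave 67.9, 63.3, 54.8 and 70.7 CPM. The groups did not overlap, and the log2 fold change was 1.63 ± 0.07 for GLP-1 (3.10-fold, limma adjusted p = 6.62e-14) and 1.55 ± 0.07 for BMS-21 (2.92-fold, limma adjusted p = 1.69e-13). Replicate 3 had the lowest Sik1 level in 5 of 6 groups, the Controls included. The log2 ratio to the Control of the same number was 3.51 to 3.79 over the replicates for GLP-1 at 1 h and 3.52 to 3.78 for BMS-21. In replicates 1 and 2 alone and in replicates 3 and 4 alone the Sik1 estimates at 1 h were 3.62 and 3.65 for GLP-1 and 3.65 and 3.67 for BMS-21.

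Sik2 and Sik3 encode the other kinases of the family, which also hold CRTC proteins in the cytoplasm. At 1 h neither passed against Control for either agent, with estimates between -0.07 and 0.02. At 6 h Sik2 held 104, 121, 110 and 111 CPM in Control, 150, 152, 147 and 147 CPM with GLP-1, and 151, 156, 142 and 146 CPM with BMS-21. The treated libraries were all above the Control libraries. Sik2 was higher by 0.42 ± 0.04 with GLP-1 (1.34-fold, limma adjusted p = 9.27e-08) and by 0.42 ± 0.05 with BMS-21 (1.34-fold, limma adjusted p = 2.23e-07). In the RefSeq table on GRCr8 Sik2 overlaps Ppp2r1b, a phosphatase subunit gene, and with unstranded libraries the reads of an overlap cannot be assigned to 1 of the genes. Ppp2r1b was higher by 0.39 ± 0.04 with GLP-1 and by 0.32 ± 0.04 with BMS-21 at 6 h (limma adjusted p = 4.70e-07 and 6.27e-06), and unlike Sik2 it also passed at 1 h, with 0.28 and 0.34. The part of Ppp2r1b in the Sik2 values was not tested.

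Of the 3 kinase genes Sik3 had the smallest differences from Control at 6 h. There it held 72.9, 77.2, 75.2 and 73.0 CPM in Control, 81.2, 83.7, 86.0 and 79.0 CPM with GLP-1, and 87.7, 87.4, 85.8 and 81.8 CPM with BMS-21. The groups did not overlap, though the gap between the highest Control and the lowest GLP-1 library was small. Sik3 was higher by 0.15 ± 0.04 with GLP-1 (1.11-fold, limma adjusted p = 0.0106) and by 0.20 ± 0.04 with BMS-21 (1.15-fold, limma adjusted p = 0.00102). With libraries scaled by their totals the GLP-1 estimate was 0.10 and did not pass (adjusted p = 0.0885). In the same RefSeq table Sik3 overlaps a long non-coding RNA and a pseudogene, and Crem and Crtc1 each overlap a long non-coding RNA.

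Set against all genes, 2 of 7 members were called higher at 1 h and 4 of 7 at 6 h for each agent, and none was called lower. For GLP-1 at 1 h, 4.17% of genes tested were called higher and 2.41% lower, and for BMS-21 at 1 h 3.54% and 2.37%. For GLP-1 at 6 h the shares were 16.2% and 15.6%, and for BMS-21 at 6 h 16.8% and 16.8%. The median log2 fold change of the 7 members was 0.01 for GLP-1 at 1 h and 0.15 at 6 h, and -0.0017 for BMS-21 at 1 h and 0.20 at 6 h, against medians of all genes between -0.0015 and 0.00055.

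**Figure D2:**
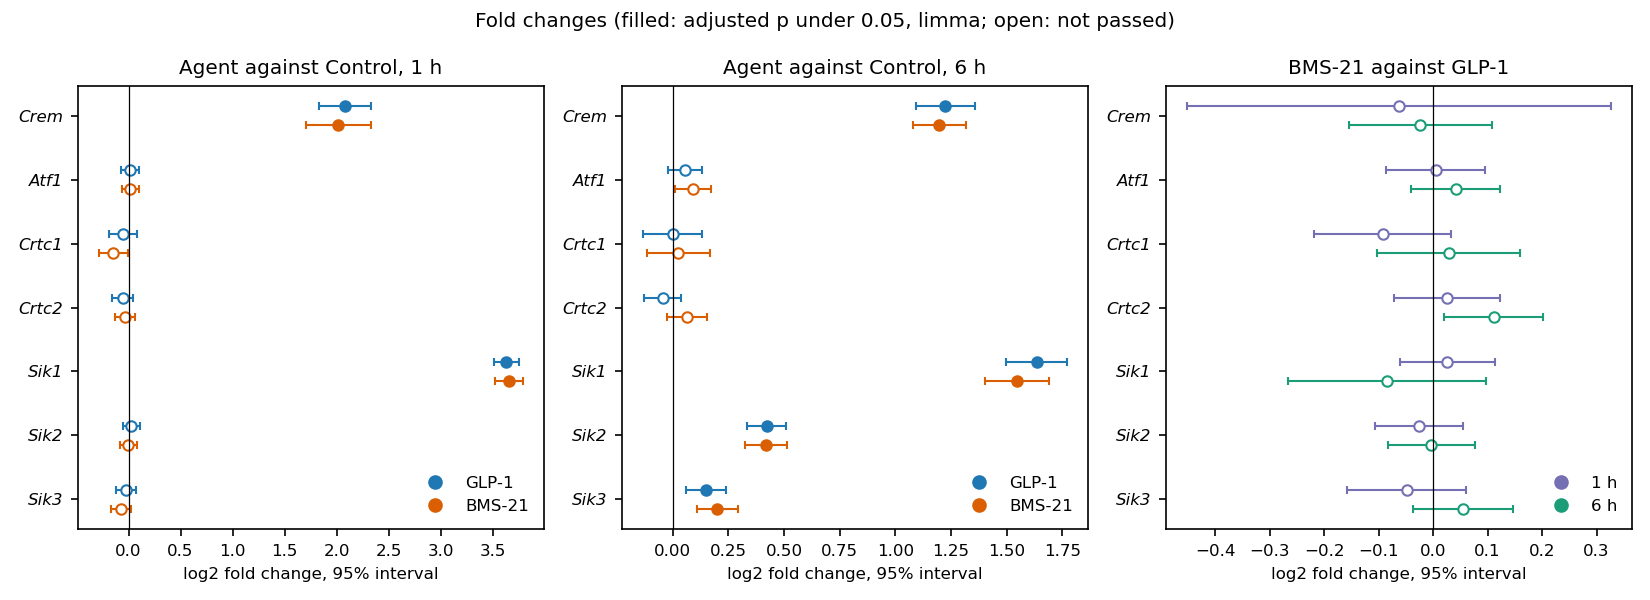
Log2 fold changes with 95% intervals (limma) of the 7 genes for each agent against Control at 1 h and at 6 h and for BMS-21 against GLP-1, with a scale of its own in each panel; filled symbols passed at an adjusted p under 0.05. Crem and Sik1 pass at both times, Sik2 and Sik3 at 6 h, and none in the right panel.

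The 3 kinase genes differed in how their reads were shared. In Control at 1 h there were 0.0961 ± 0.0104 Sik1 reads for each read of Sik2 and Sik3 together (mean ± SD, n = 4), and in Control at 6 h 0.118 ± 0.00864. With GLP-1 at 1 h the ratio was 1.19 ± 0.0691 and with BMS-21 1.24 ± 0.0934. At 6 h it was 0.294 ± 0.0303 and 0.274 ± 0.0301. Sik1 reads thus exceeded those of both other kinases summed in all 8 treated libraries at 1 h, where the lowest ratio was 1.11, and in no library at 6 h, where the highest was 0.324. This ratio too compares reads and not molecules, because gene lengths were not used. A ratio above 1 therefore does not rank the transcripts by abundance.

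**Figure D3:**
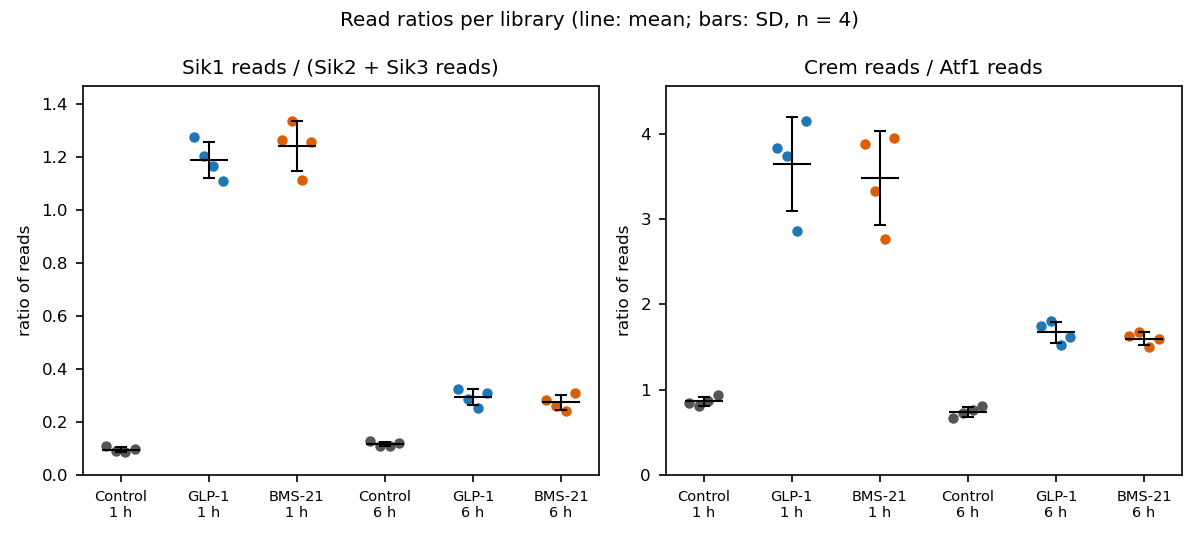
Reads of Sik1 over reads of Sik2 and Sik3 (left) and reads of Crem over reads of Atf1 (right) in each library, on axes that start at 0; points are libraries, lines are means and bars are SD (n = 4). At 1 h the treated Sik1 ratios are 1.11 or more, against 0.110 or less in Control at that time.

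The course in time was tested on the recovered reads with edgeR. In Control cells Crem fell by 0.20 ± 0.05 on the log2 scale from 1 h to 6 h (adjusted p = 0.00395), Sik2 fell by 0.29 ± 0.04 (adjusted p = 2.47e-06) and Sik3 fell by 0.46 ± 0.04 (adjusted p = 7.71e-10). Sik1 was at -0.07 ± 0.08 (adjusted p = 0.434), and Atf1, Crtc1 and Crtc2 lay between -0.04 and 0.03 and did not pass. In this comparison 26.7% of genes were called higher at 6 h and 27.2% lower, so a count of 3 of 7 lower is near the share over all genes. Sik2 went from 135, 142, 132 and 136 CPM to the lower values given above with no overlap, and Sik3 from 99.6, 101, 105 and 103 CPM likewise, whereas the Crem libraries of the Control groups overlapped.

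The response to an agent, that is its log2 difference from Control, was compared between 6 h and 1 h in the same model. For GLP-1 the response of Crem fell by 0.86 ± 0.14 from 1 h to 6 h (edgeR adjusted p = 0.000723) and that of Sik1 fell by 1.99 ± 0.10 (adjusted p = 4.12e-15). For BMS-21 the Crem response fell by 0.82 ± 0.16 (adjusted p = 0.00239) and the Sik1 response fell by 2.10 ± 0.11 (adjusted p = 1.24e-12). The response of Sik2 was higher at 6 h by 0.40 ± 0.06 for GLP-1 (adjusted p = 3.44e-06) and by 0.43 ± 0.06 for BMS-21 (adjusted p = 1.93e-06). As levels, mean Sik2 was 136 CPM in Control at 1 h and 111 CPM at 6 h, against 138 and 149 CPM with GLP-1 and 136 and 149 CPM with BMS-21. Among all genes 8.95% had a higher and 9.09% a lower response at 6 h for GLP-1, and 10.9% and 10.2% for BMS-21, against 2 of 7 members in each direction for each agent.

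Sik3 also had a higher response at 6 h. For BMS-21 the change was 0.28 ± 0.06 (edgeR adjusted p = 0.00142). For GLP-1 it was 0.18 ± 0.06 (adjusted p = 0.0464), and this call was lost in 16 of 24 alternatives, 11 of them the omission of a single library (adjusted p = 0.0524 to 0.123). Those libraries were GLP-1 1h replicates 1 and 2, Control 1h replicates 2, 3 and 4, GLP-1 6h replicates 1, 2 and 3 and Control 6h replicates 1, 3 and 4. Mean Sik3 levels at 1 h were 102 CPM in Control, 100.3 CPM with GLP-1 and 97.0 CPM with BMS-21, and at 6 h 74.6, 82.5 and 85.7 CPM. All 3 means were thus lower at 6 h than at 1 h, and every treated library at 6 h lay above the Control libraries of that time and below all 12 libraries of 1 h.

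**Figure D4:**
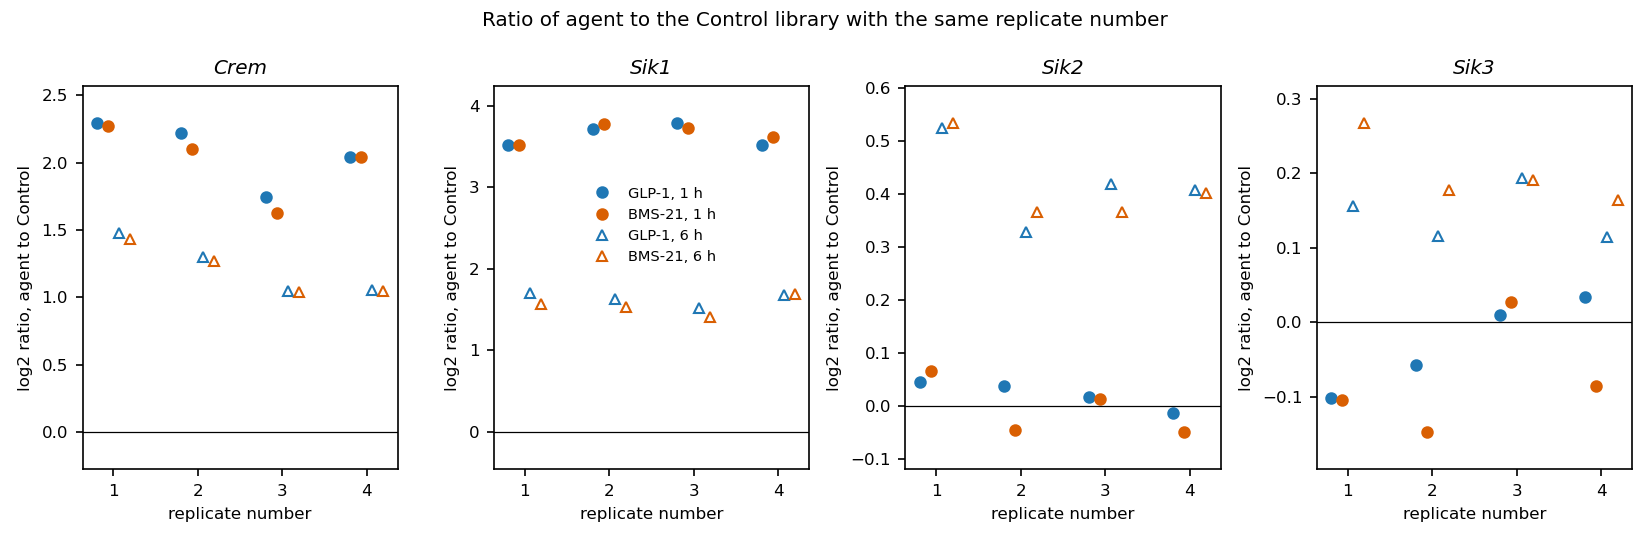
Log2 ratio of each treated library to the Control library with the same replicate number, from TMM-scaled CPM, for Crem, Sik1, Sik2 and Sik3; filled circles are 1 h and open triangles 6 h, and each panel has its own scale. Crem ratios are lowest in replicate 3 in all 4 treated groups, Sik1 ratios lie between 3.51 and 3.79 at 1 h, and Sik2 and Sik3 ratios are all above 0 at 6 h.

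BMS-21 and GLP-1, at the different doses given above, were compared directly at each time, and 0 of 7 members passed by limma, edgeR or DESeq2, with 0 of 7 at an unadjusted limma p under 0.05 at 1 h and 1 at 6 h. Over all genes the shares called were 0% higher and 0% lower at 1 h, where 432 genes had an unadjusted p under 0.05 by limma and edgeR and DESeq2 called 0, and 0.00792% higher and 0.00792% lower at 6 h, where 800 genes had an unadjusted p under 0.05 and edgeR called 2 genes and DESeq2 19. With the replicate block, which takes libraries of the same number together, limma called 85 genes at 1 h and 217 at 6 h, and still 0 of 7 members. For Sik1 the difference was 0.03 at 1 h (95% interval -0.06 to 0.11) and -0.08 at 6 h (-0.27 to 0.10). For Crem it was -0.06 at 1 h, with the wide interval of -0.45 to 0.33, and -0.02 at 6 h (-0.15 to 0.11). The intervals given are from the fit without the block. With the block the SE of the 1 h difference was 0.02 in place of 0.16 for Crem (limma adjusted p = 0.169). For Sik1 at 1 h it was 0.02 in place of 0.04 (limma adjusted p = 0.796). For Sik2 the intervals were -0.11 to 0.05 and -0.08 to 0.08, and for Sik3 -0.16 to 0.06 and -0.04 to 0.15. Crtc2 at 6 h had the largest estimate: 88.0, 88.7, 95.2 and 96.5 CPM with BMS-21 stood above 85.6, 84.1, 83.2 and 87.9 CPM with GLP-1. The groups did not overlap, but the difference of 0.11 (0.02 to 0.20) did not pass (limma adjusted p = 0.732). The Control libraries for Crtc2 at that time held 84.9, 90.9, 88.7 and 88.0 CPM and overlapped both.

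The wider family of CREB and ATF genes had 13 of 16 listed members tested against Control. At 1 h 1 gene passed with each agent, or 2 with the replicate number as a block (for BMS-21 also 2 without Control 1h replicate 4 or BMS-21 1h replicate 3). It was Atf3, a stress-induced repressor, which was higher by 0.77 with GLP-1 and 0.66 with BMS-21. Of all genes tested at 1 h, 4.17% were higher and 2.41% lower with GLP-1, and 3.54% and 2.37% with BMS-21. At 6 h 4 of 13 were higher and 0 lower with GLP-1, and 6 and 0 with BMS-21, where 16.2% and 16.8% of all genes were higher. With the replicate block the GLP-1 counts were 9 and 1, and with replicates 3 and 4 alone 7 were higher. For GLP-1 1 gene was also lower with library totals, and 1 gene was lower without Control 6h replicate 4, GLP-1 6h replicate 3 (GLP-1) or BMS-21 6h replicate 3 (BMS-21). The genes that rose included Creb3l2, a membrane-bound factor of the secretory pathway (0.78 and 0.89), Creb3 (0.47 and 0.44) and Atf4, the effector of the integrated stress response (0.35 and 0.45). The list median at 6 h was 0.12 with GLP-1 and 0.10 with BMS-21.

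The enzymes and cofactors that act on CREB, CRTC and SIK proteins had 24 of 25 listed members tested. At 1 h 3 were higher and 1 lower with each agent. The rates over all genes tested at 1 h stood at 4.17% up and 2.41% down (GLP-1) and 3.54% and 2.37% (BMS-21). Mapkapk2, a stress-activated kinase that can phosphorylate CREB, was higher by 0.79 with GLP-1 and 0.71 with BMS-21. Stk11, whose product LKB1 activates the SIK kinases, was higher by 0.27 and 0.25. Prkar1a, a regulatory subunit of protein kinase A, was higher by 0.14 and 0.13, and the catalytic subunit gene Prkacb was lower, at -0.15 and -0.14. With replicates 3 and 4 alone the calls of Stk11, Prkar1a and Prkacb were lost for both agents, and those of the 2 subunit genes were also lost without some single libraries. For GLP-1 the call of Prkar1a was lost without GLP-1 1h replicate 1 or 2 (adjusted p = 0.0506 to 0.0653) and that of Prkacb without replicate 2 of Control 1h or replicate 4 of GLP-1 1h (0.0551 to 0.0638). For BMS-21 that of Prkar1a was lost without any of the Control 1h replicates 1, 2, 3 and 4 or BMS-21 1h replicate 1 or 2 (0.0501 to 0.159), and that of Prkacb without Control 1h replicate 1 or 2 or BMS-21 1h replicate 1, 3 or 4 (0.0610 to 0.0974). At 6 h 5 of 24 were higher and 5 lower with each agent, counts near the shares over all genes (16.2% higher and 15.6% lower with GLP-1, 16.8% and 16.8% with BMS-21). With the replicate block 10 were lower with GLP-1, and with libraries scaled by their totals 11 were lower with GLP-1 and 8 with BMS-21. Camk4, a calcium-dependent CREB kinase, was higher by 2.21 with GLP-1 and 2.45 with BMS-21, while at 1 h it was at -0.02 and 0.02 and did not pass. Prkacb stood at -0.43 and -0.51 and Hdac5, which encodes a deacetylase that SIK kinases can phosphorylate, at -0.54 and -0.48. The list medians lay between -0.04 and 0.02 in the 4 comparisons.

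Of the kinases related to AMPK, to which the SIK kinases belong, 9 of 11 listed were matched and tested. At 1 h 0 of 9 passed for either agent by limma, edgeR or DESeq2, 2 had an unadjusted limma p under 0.05 for GLP-1 and 0 for BMS-21, and with the replicate block 1 was called higher for GLP-1. The shares over all genes at 1 h were 4.17% higher and 2.41% lower for GLP-1, and 3.54% and 2.37% for BMS-21. At 6 h 2 of 9 were higher and 1 lower with each, again near the shares over all genes (16.2% and 15.6% for GLP-1, 16.8% and 16.8% for BMS-21). Prkaa2, a catalytic subunit of AMPK, was lower, at -0.46 with GLP-1 and -0.52 with BMS-21. Nuak1 was higher by 0.45 and 0.52, and Brsk1 by 0.28 and 0.27.

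Most of the listed targets of CREB and CRTC, a list chosen with earlier results of these data known, were higher with both agents. At 1 h 19 of 23 tested were higher with GLP-1 and 18 with BMS-21, and 0 were lower (1 with the replicate block for GLP-1), with list medians of 1.55 and 1.62, where 4.17% and 3.54% of all genes were higher. Pde10a, Ppargc1a, Bdnf and Areg did not pass with either agent at 1 h, nor did Pde4b with BMS-21. The orphan receptor gene Nr4a1 was higher by 4.32 and 4.31, and the AP-1 genes Fosb by 5.10 and 5.12 and Junb by 2.47 and 2.63. At 6 h 20 and 21 of 22 were higher and 0 lower, against 16.2% and 16.8% of all genes higher, with medians of 0.74 and 0.92. There Pde10a, a cyclic nucleotide phosphodiesterase gene (1.28 and 1.47), Stc1 (2.14 and 2.21) and the secreted granule protein gene Vgf (0.96 and 0.91) had the smallest adjusted p. At 1 h Pde10a was at -0.09 and -0.08. Of 18 targets with a promoter window, 5 held the full cAMP response element: Areg, Dusp1, Ppargc1a, Scg2 and Vgf. A core site was held by 15 of the 18. Over all 27457 genes with a window, 2.00% held the full element and 23.0% a core site. These shares are a description with no test.

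**Figure D5:**
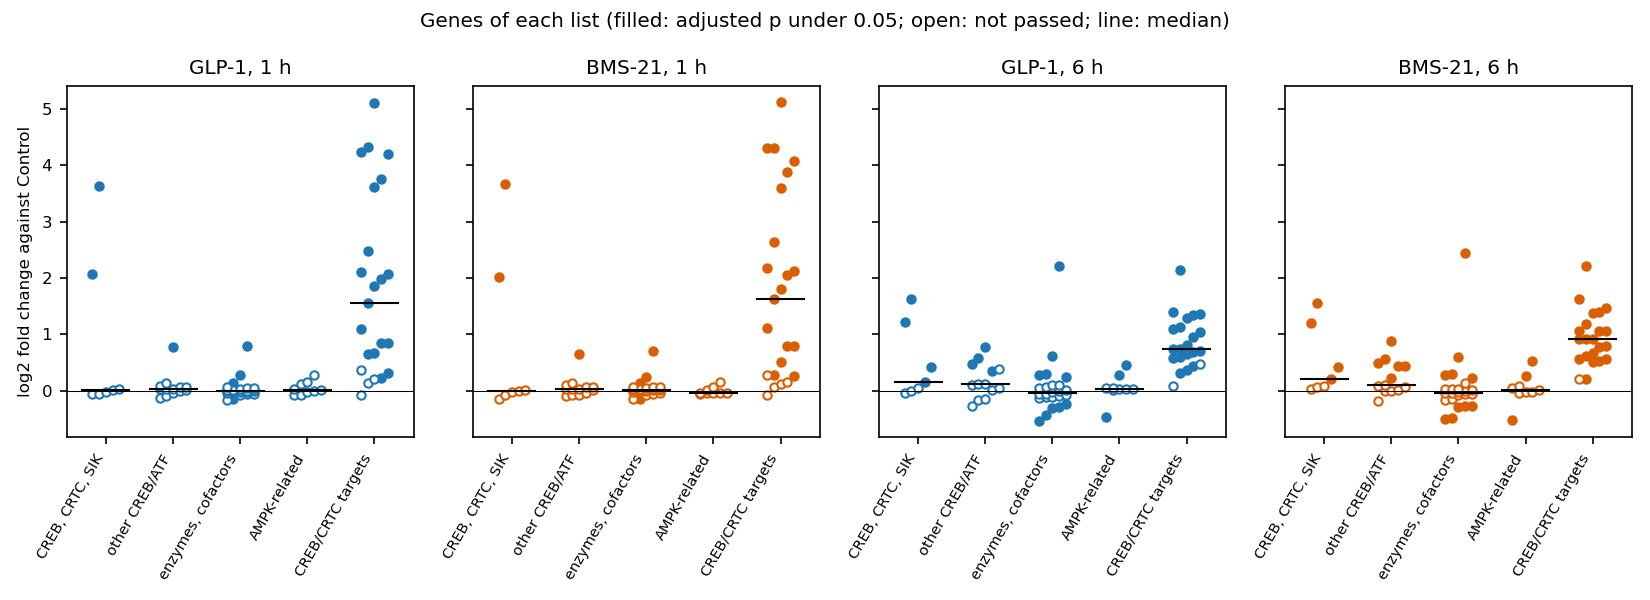
Log2 fold change against Control of every tested gene, by list and comparison; filled symbols passed at an adjusted p under 0.05 (limma) and lines are medians. The CREB and CRTC targets have medians of 1.55 and 1.62 at 1 h and 0.74 and 0.92 at 6 h, while the medians of the other lists are at most 0.20.

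Over the 24 libraries the genes whose log2 CPM followed Crem most closely, of 9456 compared, were Ackr3 (Pearson r = 0.984), Sik1 (0.981) and Plk2 (0.981). For Sik1 they were Fosl2 (0.990), Nr4a2 (0.989) and Midn (0.988). These coefficients are descriptions: the libraries share the 6 groups, so any gene with the same order of group means scores high. Fosl2, an AP-1 gene, was higher than Control by a log2 CPM difference of 4.00 with GLP-1 and 3.94 with BMS-21 at 1 h and by 1.49 and 1.44 at 6 h, a fall between the times that the response of Sik1 also had. Ackr3, a chemokine receptor gene, was higher by 2.26 and 2.13 at 1 h and by 1.37 and 1.44 at 6 h.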

How the data were processed

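RNA was measured by sequencing mRNA libraries (TruSeq RNA v2, per the labels' protocols) of 24 INS-1 samples. Build Rnor_5.0 is named per the submitters' processing notes, which list TopHat2 2.0.12, Bowtie2 2.2.3.0, SAMtools 0.1.19.0, Subread, DESeq and DESeq2 1.6.3 without roles. There are 6 deposited tables of 26404 genes, each with the 8 libraries of 2 groups. The signal values deposited by the authors are normalised counts, made by dividing every count by 1 size factor per library within the table. Columns of log2 fold change and adjusted p-value were computed by the authors, per the file headers. In every library 100% of values were whole multiples of 1 step (tolerance 0.001), which gave back the reads.

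Agents were compared within a table by limma 3.58.1 (trend, robust) on log2(normalised count + 1) on genes averaging 10 or more, which slightly understates the fold of low genes. Comparisons across time used edgeR 4.0.16 (quasi-likelihood, TMM) on the recovered reads. A gene passed at an adjusted p under 0.05 (Benjamini-Hochberg over all genes tested). SEs of edgeR values were derived from the fold change and its F statistic. In R 4.3.3, DESeq2 1.42.0, other pseudocounts, filters and scalings, a replicate block, the pairs of replicates and the omission of each library were the alternatives. The limma, edgeR and DESeq2 fits of a pair of groups and of a change of response were tested on simulated data without differences between replicates. The Control comparison across time and most of the alternatives were not tested in this way.

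Libraries with the same replicate number correlated across 10799 genes by 0.125 to 0.406 over 24 pairs after removal of group means. Correlations between libraries with different numbers were not computed, so pairing by number was not told apart from the split that follows. The first component of the same values with group means removed (25.8% of variance) separated replicates 1 and 2 from 3 and 4.

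The members and gene lists were chosen with earlier results of these data known. Named were the 9 members, up to 3 genes with the smallest adjusted p for each list and comparison with Control, and the 3 genes most correlated with each member whose group means differed by at least 2 times. Ppp2r1b was named after its values were seen, for its overlap with Sik2. A planned ratio of Crem to Creb1 and Atf1 used Atf1 alone. Of the listed genes, Ep300, Brsk2, Nuak2, Pcsk1 and Acta2 were not matched. The summed level of the markers of other islet cells is not reported here.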

Additional observations from a re-analysis of the deposited data

Results flagged for a closer look

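Of 42 groups of 4 libraries tested, 1 held a library far from the others: Atf1 in Control 1h replicate 1, at 104.9 CPM against 108.1 to 108.3 CPM in the other 3. About 1 in 20 groups is marked by chance alone, and Atf1 passed in no comparison.

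For 4 genes the response to an agent differed between 6 h and 1 h by a test of the difference itself (edgeR). The log2 change of the response was -0.86 for Crem, -1.99 for Sik1, 0.40 for Sik2 and 0.18 for Sik3 with GLP-1, and -0.82 for Crem, -2.10 for Sik1, 0.43 for Sik2 and 0.28 for Sik3 with BMS-21. The GLP-1 value of Sik3 had an adjusted p of 0.0464, and over its 24 alternatives the adjusted p ran from 0.00786 to 0.281. The GLP-1 and BMS-21 values share the Control libraries and are not independent of each other.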

How the results depend on the processing

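Over 9 comparisons the number of members past the threshold stayed within 1.5 times in 180 of 184 alternatives. The exceptions were all in replicates 3 and 4 alone, which leave 2 libraries a group: 1 member in place of 2 for GLP-1 and for BMS-21 at 1 h, and 2 in place of 4 for the change of the GLP-1 and of the BMS-21 response. Of 1288 values of single members, 22 lost their call, 1 gained one (Atf1 with BMS-21 at 6 h) and 0 reversed. The 1288 include the values of members that were not called in the main fit and so had no call to lose. The losses were Crem in replicates 3 and 4 alone (4 values, adjusted p = 0.0987, 0.194, 0.117 and 0.187), Sik3 with GLP-1 at 6 h under library totals, 16 values of the change of the Sik3 response to GLP-1 (0.13 to 0.22 over all alternatives, main 0.18) and the Sik3 change for BMS-21 in replicates 3 and 4 alone (0.21, adjusted p = 0.0612). The cause was not tested. Without 1 library at a time the member count was 2 and 4 for each agent at 1 h and 6 h, 0 for BMS-21 against GLP-1, 3 for Control, 3 to 4 for the GLP-1 change and 4 for the BMS-21 change. The replicate block changed no member's call. Over all genes it moved the count from 837 to 1513 for GLP-1 and from 751 to 1551 for BMS-21 at 1 h, and for BMS-21 against GLP-1 from 0 to 85 at 1 h and from 2 to 217 at 6 h. For that last comparison the count was also 1 with a mean of at least 50, 14 with all 24 libraries in 1 fit, 19 by DESeq2, 37 and 39 in the pairs of replicates, and 0 without any 1 library, and for BMS-21 at 1 h it was 497 with replicates 3 and 4 alone. Library-total scaling shifted the median of all genes by at most 0.06, and the share of calls that were higher went from 63.3% to 47.0% (GLP-1, 1 h), 51.0% to 32.9% (GLP-1, 6 h), 59.9% to 46.1% (BMS-21, 1 h), 50.0% to 33.0% (BMS-21, 6 h) and 51.7% to 40.8% (BMS-21 change). A count of 3 reads, the limit that a count of 0 allows, was 0.228 to 0.281 RPM; the lowest member value was 248 reads.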

Other observations

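The authors' deposited table for BMS-21 at 1 h gives Crem a log2 fold change of 1.31, and their table for GLP-1 at 1 h gives 2.05. The normalised counts in the same tables give 2.02 and 2.08 by limma. For Sik1 the authors' deposited tables give 3.23 with BMS-21 and 3.61 with GLP-1, against 3.66 and 3.63. At 6 h their values for Crem are 1.17 and 1.22, and for Sik1 1.49 and 1.63, against 1.20, 1.22, 1.55 and 1.63 here. As levels, Crem at 1 h was 378 to 428 CPM in replicates 1, 2 and 4 and 292 CPM in replicate 3 of BMS-21, and 410 to 433 CPM and 316 CPM in those of GLP-1. In the authors' deposited tables of BMS-21 against GLP-1 the sign of each of the 7 members at each time is opposite to that of BMS-21 minus GLP-1 obtained here, for example -0.09 against 0.11 for Crtc2 at 6 h.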
